A study of Mus musculus with 12 samples.

Results

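Loss of estrogen receptor alpha (ESR1) in the oviduct of immature mice that had received no gonadotropin is described here, from 3 untreated ESR1KO and 3 untreated WT arrays. The description covers 1997 probe sets of the 45101 on the array, those whose rows could be located in both groups. They are called matched genes below. Both groups were females of a C57BL/6 background killed at 23 days of age with no treatment. ESR1KO mice carried no intact copy of the gene (ESR1-/-), whereas the controls labelled WT were siblings with 1 floxed and 1 deleted copy (ESR1flox/-). Animals of either genotype could also carry the ZP3Cre transgene, by which the floxed gene had been deleted in the oocytes of the mothers, so WT here is a heterozygous control. Each array measured RNA of whole oviducts pooled from 3 to 4 mice, and per the study's methods the 3 replicates used different mice. A second pair of groups was killed 48 h after 5 IU PMSG (pregnant mare serum gonadotropin, given at 23 days of age). It is used for contrast, and its arrays also enter the estimate of the spread behind the untreated tests. In it age and PMSG cannot be told apart.

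ESR1 is a nuclear receptor that binds estradiol and then acts on genes either through estrogen response elements in DNA or by tethering to other transcription factors. In the oviduct it is found in epithelium, stroma and smooth muscle, and estradiol is known there for its part in secretion by the epithelium and in contraction of the muscle. The comparison addresses which transcripts differ without the receptor before follicles are stimulated, when the ovary makes little estradiol.

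The values are log2 expression signals, so a difference of 1 is a 2-fold change. A gene is called near background in a group whose mean is under 4, and its fold is then uncertain. The error given with a difference is its standard error, with n = 3 arrays a group throughout. The untreated ESR1KO columns of the deposited table follow its probe set names while the other 9 columns follow another order. Taken row by row as deposited, no ESR1KO column had a correlation with a WT or PMSG column above -0.123. Once the rows were located through the folds and p-values of a supplementary gene table, used as a key, ESR1KO and WT arrays correlated at 0.858 to 0.942 across the matched genes. The key fixes the fold of a matched gene to the printed one, and the key lists genes past an overall test of all 4 groups in alphabetical order up to Slc27a2. Counts over matched genes are therefore counts within a selected set and not over the transcriptome, and a gene absent from it was not tested. The median SD of a matched gene was 0.147 in WT and 0.231 in ESR1KO (n = 3 each). In the ESR1KO arrays the labelled tissue was borne out by Ovgp1, the oviductal glycoprotein of secretory cells (mean 15.94), Foxj1 of ciliated cells (11.69), Pax8 (11.07) and the muscle gene Acta2 (14.80). The oocyte gene Zp3 (1.86), Amh (1.41) and Adipoq (2.06) were near background. Other markers of ovary and fat were not. Of 18 ovary markers 4 had a mean of at least 4 (Foxl2, Inha, Inhba and Star), with Inha at 8.04. Of 10 adipocyte markers 4 did as well (Thrsp, Cidea, Fabp4 and Plin4).

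Esr1 itself was lower in each ESR1KO array but did not fall to background. Its matched probe set, 1460591_at, read 12.94, 12.92 and 13.05 in WT and 10.42, 12.13 and 11.05 in ESR1KO, where replicate 2 was the highest and the groups did not overlap (log2 difference -1.77 ± 0.35 SE, adjusted p at most 0.0409, limma). The other 2 Esr1 probe sets could be read only in ESR1KO, and both were highest in replicate 2 as well, with 3.72, 6.13 and 3.67 for 1421244_at and 10.28, 11.21 and 9.26 for 1435663_at. Whether these probe sets lie inside the deleted part of the gene is not given in the sources used here, so their levels do not by themselves check the deletion. Of the 9 matched genes of steroid and nuclear receptors, Esr1 was called and the other 8 were not (11.1% called, against 18.1% of all matched genes). Pgr, the progesterone receptor, gave 12.58, 12.60 and 12.61 in WT and 11.18, 11.97 and 11.32 in ESR1KO and missed the threshold narrowly (difference -1.10 ± 0.23, adjusted p at most 0.0513). Rarb, a retinoic acid receptor, gave 3.54, 4.86 and 4.42 in WT and 5.85, 5.80 and 6.10 in ESR1KO (difference 1.64 ± 0.37, adjusted p at most 0.0834). The remaining members, Gper1 (a membrane receptor for estrogen), Rora, Pparg, Nr2c1, Nr3c1 and Nr2f2, had differences between -0.50 and 0.73.

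Against WT, 361 of the 1997 matched genes (18.1%) were called in ESR1KO, that is with an adjusted p under 0.05 and a change of at least 2-fold. They split evenly, 181 higher (9.06%) and 180 lower (9.01%). The PMSG arrays share in the estimate of the spread, and with the 6 untreated arrays alone 171 genes were called, 154 of them among the 361. The p is an upper bound, because it was adjusted as for all 45101 rows, so a gene not called is not shown to be unchanged. In each called gene the 3 ESR1KO arrays lay apart from the 3 WT arrays, which held for 1568 matched genes (78.5%) in all, 853 with ESR1KO higher (42.7%) and 715 with it lower (35.8%). Genes called lower had a median log2 difference of -1.88 and those called higher of 1.80, against 0.147 for all matched genes. Changes of at least 8-fold were found in 28 genes lower and 25 higher. Of the genes lower, 40 were near background in ESR1KO, and of those higher, 28 were near background in WT. The former include Oxtr, Dcc, Flt1, Kcnf1, Klk1b24, Pcdh17 and Slc10a7. The latter include Ager, S100a8, Pcdh8, Kcnd2, Kcne1, Klk8, Il15ra, Adamts3 and Arg1. With an array left out the calls numbered 101 without WT replicate 2, 142 without WT replicate 3, 211 without WT replicate 1, 179 without ESR1KO replicate 1, 167 without ESR1KO replicate 3 and 331 without ESR1KO replicate 2. Of 128 called genes taken by the naming rule 34 kept their call under each alternative that retained their row, among them Avpr1a, Ager, Adamts16, Greb1, Ramp3, Il33, Lcn2, Mmp7 and Aldh1a3, and 94 lost it under at least 1, among them Esr1, Dcpp3, Hpgds, Cyp26a1, Pecam1, Emcn and Actg2. Ano4, Cacna1g, Klk8, Serpina1b and Cd163 lost it under 15 of 21 alternatives each. Esr1, S100a8 and Il17rb lost it under 14 of 21, and Fgf18 under 13 of 21.

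**Figure D1:**
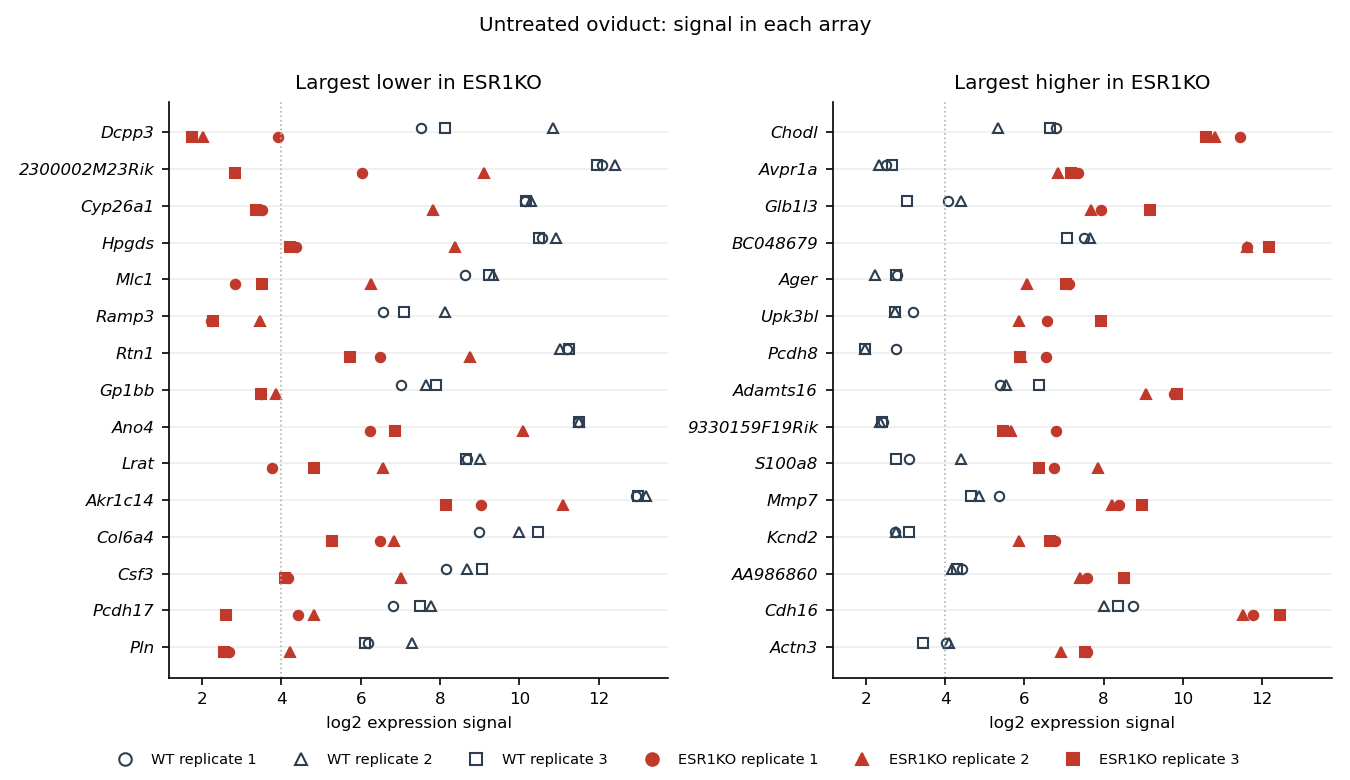
Log2 expression signal (horizontal axis) of the 15 named genes with the largest differences called lower (left) and higher (right) in untreated ESR1KO, with a point for each array; open symbols are WT, filled symbols ESR1KO, the shape is the replicate, and the dotted line is the near-background limit of 4. The genes were taken among those whose groups do not overlap. For genes such as Cyp26a1 and Hpgds ESR1KO replicate 2 (triangle) lies between WT and the other ESR1KO arrays.

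Enzymes of prostaglandin and retinoid metabolism held several of the largest decreases, beside other members of the same pathways that rose. Hpgds, which makes prostaglandin D2, read 10.57, 10.92 and 10.51 in WT and 4.38, 8.38 and 4.21 in ESR1KO. ESR1KO replicate 2 was the nearest to WT, and the other 2 ESR1KO arrays lay close to background (32.2-fold lower, log2 difference -5.01 ± 0.90 SE, adjusted p at most 0.0272). Receptors Ptgfr, for prostaglandin F2 alpha, and Ptger4, for prostaglandin E2, were lower too, with differences of -2.97 ± 0.55 and -1.08 ± 0.19. Ptgfr gave 7.56, 8.40 and 8.02 in WT and 3.85, 6.05 and 5.19 in ESR1KO, while Ptger4, a bright and tight gene, gave 11.97, 11.96 and 11.91 in WT and 10.87, 11.04 and 10.69 in ESR1KO. In the other direction went the phospholipases Pla2g10 and Pla2g5, which free the fatty acid precursor, and the exporter Abcc4. Pla2g10 read 6.24, 4.35 and 5.04 in WT and 8.76, 7.94 and 9.09 in ESR1KO, with no overlap (log2 difference 3.39 ± 0.49 SE, adjusted p at most 0.00892). Pla2g5 differed by 2.43 ± 0.32 and Abcc4 by 1.11 ± 0.22. In all 6 of the 9 matched prostaglandin genes were called, 3 in each direction (66.7%, against 18.1% of all matched genes), although Abcc4 lost its call under 16 of 21 alternatives. All gene lists were written with earlier results of these data known, so their shares only describe them and test no enrichment.

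Of 14 matched retinoid genes 3 fell and 3 rose (42.9% called, against 18.1% of all matched genes). Cyp26a1, the enzyme that degrades retinoic acid, gave 10.15, 10.30 and 10.16 in WT and 3.52, 7.81 and 3.37 in ESR1KO. The 3 WT arrays were within a narrow range and ESR1KO replicate 2 was far above its fellows (39.5-fold lower, log2 difference -5.31 ± 0.93 SE, adjusted p at most 0.0245). Lrat, which stores retinol as its ester, read 8.68, 9.02 and 8.66 in WT and 3.76, 6.56 and 4.82 in ESR1KO (log2 difference -3.74 ± 0.56 SE, adjusted p at most 0.0107). Crabp2, a retinoic acid carrier, fell by 3.07 on the log2 scale to near background. The genes that rose code for dehydrogenases. Aldh1a3, a retinaldehyde dehydrogenase, was 4.47, 3.99 and 3.56 in WT and 7.42, 7.13 and 7.57 in ESR1KO, and its groups were wide apart (log2 difference 3.37 ± 0.24 SE, adjusted p at most 0.000237). Aldh1a7 differed by 2.89 ± 0.27 and Adh1, an alcohol dehydrogenase, by 1.07 ± 0.17. Aldh1a2, of the same family, had a difference of 0.82 ± 0.21 and was not called (adjusted p at most 0.157).

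Genes known from other tissues to respond to estradiol moved both ways. Of 12 matched, 4 were lower and 2 higher. Greb1, a cofactor and classical target of the receptor, gave 6.30, 6.47 and 5.64 in WT and 2.89, 3.97 and 2.87 in ESR1KO and was near background in ESR1KO (log2 difference -2.90 ± 0.36 SE, adjusted p at most 0.00522). Ramp3, which modifies the receptor for adrenomedullin, also fell to near background, with 6.57, 8.13 and 7.10 in WT and 2.22, 3.45 and 2.27 in ESR1KO (log2 difference -4.62 ± 0.48 SE, adjusted p at most 0.00234). Rerg, a small GTPase named for its estrogen regulation, differed by -2.57 ± 0.47 and Oxtr, the oxytocin receptor, by -2.01 ± 0.23. Lactotransferrin (Ltf) and lipocalin 2 (Lcn2), secreted proteins that bind iron or its carriers and rise with estrogen in the uterus, were higher in ESR1KO. Lcn2 read 10.73, 10.55 and 10.56 in WT and 13.91, 13.75 and 14.46 in ESR1KO (10.7-fold higher, log2 difference 3.42 ± 0.23 SE, adjusted p at most 0.000237). Ltf was bright in both genotypes, 12.43, 13.07 and 12.72 in WT and 13.91, 13.82 and 14.51 in ESR1KO (difference 1.34 ± 0.24). Muc1, a cell surface mucin, gave 1.54 ± 0.32 but was not called (adjusted p at most 0.0559).

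Among vasoactive and peptide-hormone genes, Adm (adrenomedullin, a vasodilator peptide) fell together with Ramp3. Adm gave 9.31, 9.02 and 8.84 in WT and 6.75, 7.79 and 6.48 in ESR1KO (difference -2.05 ± 0.34). Avpr1a, a vasopressin receptor, rose with little spread, 2.51, 2.33 and 2.66 in WT and 7.37, 6.84 and 7.19 in ESR1KO (24.8-fold higher, log2 difference 4.63 ± 0.22 SE, adjusted p at most 1.79e-05). All 3 WT arrays were near background. Steroid-modifying enzymes of the aldo-keto reductase family also parted. Akr1c14, a 3-alpha-hydroxysteroid dehydrogenase, read 12.95, 13.19 and 13.00 in WT and 9.03, 11.11 and 8.15 in ESR1KO (log2 difference -3.62 ± 0.59 SE, adjusted p at most 0.0164), and Akr1c19 rose by 2.10 ± 0.24.

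Secreted products and defence genes contained both the largest single decrease and a run of increases. Dcpp3, of a family of secreted proteins made in salivary gland and oviduct, gave 7.51, 10.85 and 8.13 in WT and 3.91, 2.01 and 1.74 in ESR1KO and was near background in all 3 ESR1KO arrays (log2 difference -6.28 ± 0.78 SE, adjusted p at most 0.00502). Its probe set may not tell it from the close copies of that family. Kallikreins, which are secreted serine proteases, and serpins, which inhibit such proteases, held 4 lower and 3 higher of 12 matched. The share called was 58.3%, against 18.1% of all matched genes. Klk1b21 (-2.91 ± 0.36) and Klk1b24 (-2.64 ± 0.46) belong to a family of near-identical copies, so that their probe sets may not tell them apart. Serpinb11 read 10.08, 10.67 and 10.36 in WT and 5.54, 8.10 and 7.66 in ESR1KO (difference -3.27 ± 0.53). Klk8, Serpina1b and Serping1, the complement C1 inhibitor, were higher, by 2.93 ± 0.57, 1.52 ± 0.30 and 1.05 ± 0.14. Klk1b1 was near background in each of the 6 arrays, 2.05, 1.97 and 2.01 in WT and 2.13, 2.01 and 1.96 in ESR1KO.

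Of 15 matched genes of complement and innate defence 6 rose and 1 fell, against 9.06% and 9.01% of all matched genes. Ager, a pattern recognition receptor, gave 2.79, 2.24 and 2.76 in WT and 7.13, 6.08 and 7.04 in ESR1KO (log2 difference 4.16 ± 0.39 SE, adjusted p at most 0.00143). S100a8, a calcium-binding protein of granulocytes and stressed epithelia, gave 3.10, 4.42 and 2.75 in WT and 6.76, 7.87 and 6.36 in ESR1KO, with replicate 2 the highest in both genotypes (difference 3.57 ± 0.70). Its call was lost under 14 of 21 alternatives. Complement component C2 rose by 1.39 ± 0.17 and Nfkbie, an inhibitor of the NF-kappa-B pathway, by 1.43 ± 0.27. Haptoglobin (Hp) was the gene that fell, 11.72, 12.10 and 12.05 in WT and 9.41, 10.61 and 10.04 in ESR1KO (difference -1.94 ± 0.28). Interleukins and their receptors showed 5 rises and 0 falls among 14 matched, with 2 lower and 9 higher when the same test was made after PMSG, where 18.8% of all matched genes were lower and 26.9% higher. Il33, an epithelial alarmin, read 8.01, 7.76 and 7.79 in WT and 11.17, 10.66 and 10.70 in ESR1KO (log2 difference 2.99 ± 0.32 SE, adjusted p at most 0.00234), and Il18r1, part of the interleukin 18 receptor, 8.14, 7.40 and 7.76 in WT and 10.53, 10.54 and 10.97 in ESR1KO (log2 difference 2.91 ± 0.39 SE, adjusted p at most 0.00716). Il7, Il15ra and Il17rb rose by 2.11, 1.90 and 1.86. Of 9 matched chemokine genes Ccl28 (2.53 ± 0.44) and Cxcl12 (1.43 ± 0.21) were higher and Cxcl14 (-1.86 ± 0.32) lower (33.3% called). Csf3, the granulocyte colony-stimulating factor, fell, 8.16, 8.67 and 9.05 in WT and 4.16, 7.03 and 4.09 in ESR1KO (difference -3.54 ± 0.67), while Csf1, that of macrophages, rose by 1.18 ± 0.19. Among 9 interferon-stimulated genes Gbp8 (-3.25 ± 0.45) and Ifi27l2a (-1.88 ± 0.26) were lower and none was higher (22.2% called, against 18.1% of all matched genes).

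**Figure D2:**
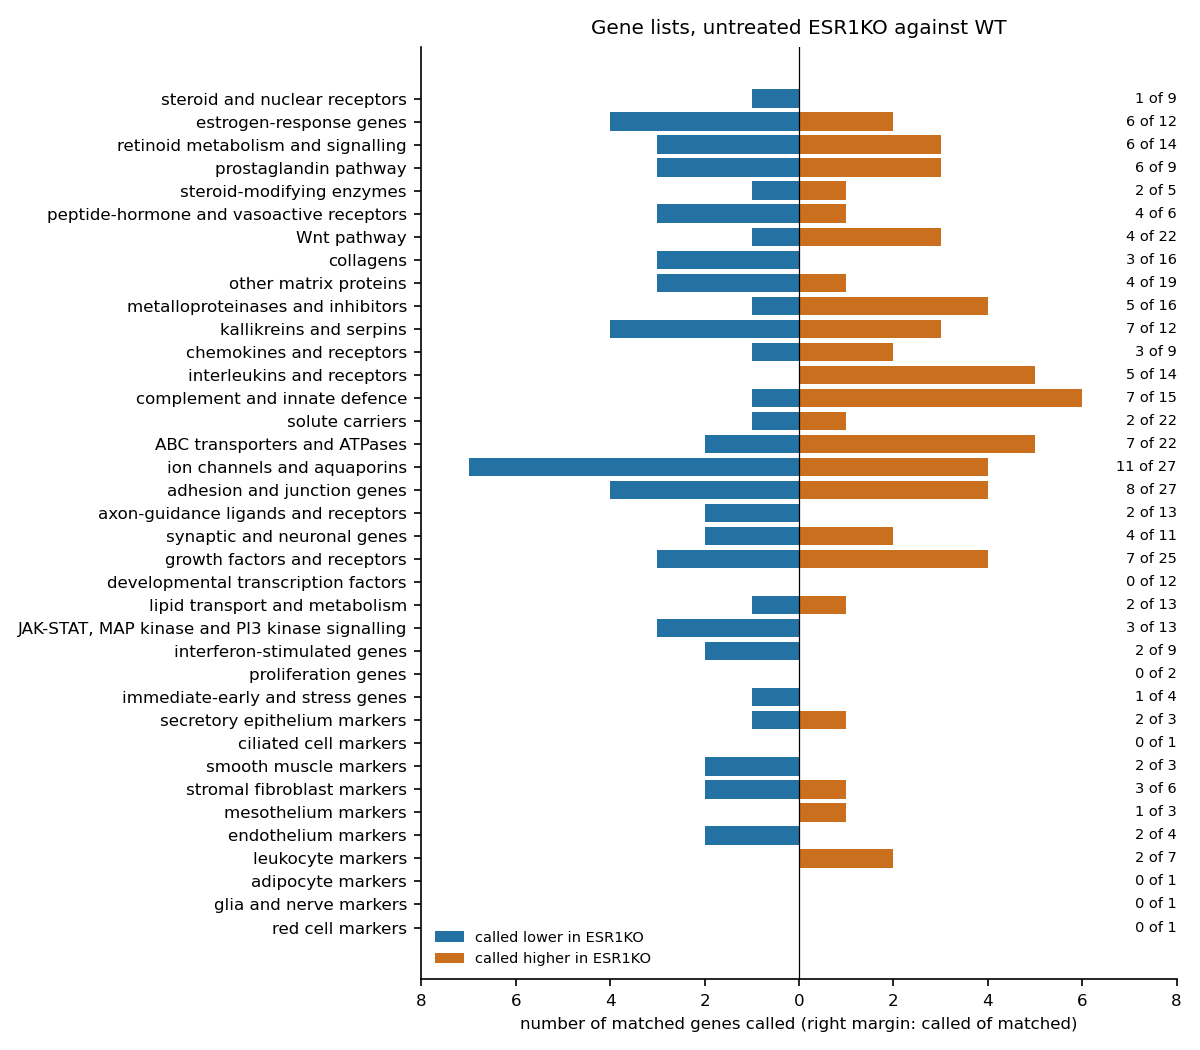
Number of matched genes called lower (bars to the left) and higher (bars to the right) in untreated ESR1KO, for each gene list with a matched member; the right margin gives called of matched. The interleukins have 5 genes higher and 0 lower, the ion channels 7 lower and 4 higher, and the developmental transcription factors 0 called of 12.

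Transcripts of the wall of the oviduct were partly lower. Of 3 matched smooth muscle markers, Actg2 (enteric gamma actin) and Pln (phospholamban, the brake on the calcium pump of the sarcoplasmic reticulum) fell. That is 66.7% called, against 18.1% of all matched genes. Actg2 gave 11.78, 12.59 and 12.27 in WT and 10.14, 10.52 and 9.20 in ESR1KO (log2 difference -2.26 ± 0.45 SE, adjusted p at most 0.0459) and Pln 6.19, 7.29 and 6.11 in WT and 2.68, 4.22 and 2.55 in ESR1KO (log2 difference -3.38 ± 0.47 SE, adjusted p at most 0.00814). Actg2 lost its call under 13 of 21 alternatives, and Pln was near background in ESR1KO (mean 3.15), so its fold is uncertain. Kcnmb1, a subunit of the calcium-activated potassium channel, had a difference of -1.46 ± 0.38 and was not called (adjusted p at most 0.167). In bulk RNA fewer cells of a type and less RNA per cell cannot be told apart. Acta2 and Myh11, main muscle genes that could be read only in ESR1KO, were at 14.97, 14.96 and 14.47 and at 13.58, 13.57 and 12.81, lowest in replicate 3, and the summed signal of the 23 muscle markers was 17.06, 17.04 and 16.55 (log2). The part of these levels in the result was not tested. Kcnj8 and Abcc9, which form an ATP-sensitive potassium channel of vessels and muscle, were lower as well, with differences of -1.78 ± 0.30 and -2.89 ± 0.51.

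Collagens and other matrix proteins gave 6 lower and 1 higher among 35 matched members, and the larger part of both lists was not called. The share called was 18.8% of the 16 collagens and 21.1% of the 19 other matrix proteins, against 18.1% of all matched genes, and the median log2 differences of both lists were above 0, at 0.26 and 0.48. After PMSG 2 collagens were called lower and 7 higher, and 5 other matrix proteins lower and 11 higher, where 18.8% of all matched genes were lower and 26.9% higher. Col6a4 read 8.98, 9.98 and 10.47 in WT and 6.50, 6.84 and 5.27 in ESR1KO (log2 difference -3.61 ± 0.45 SE, adjusted p at most 0.00502). Col1a2, a chain of type I collagen, and Col5a3, a chain of type V, fell by 2.34 and 1.94 on the log2 scale. For Col1a2 the matched probe set is a weak one, 6.14, 7.20 and 6.91 in WT and 4.68, 5.12 and 3.44 in ESR1KO, and another probe set, read only in ESR1KO, put Col1a2 among the brightest collagens there. Fibronectin (Fn1) gave 13.03, 13.36 and 13.33 in WT and 9.79, 11.79 and 9.92 in ESR1KO, with replicate 2 highest in ESR1KO (difference -2.74 ± 0.41), and lumican (Lum) 11.48, 12.51 and 11.94 in WT and 8.84, 10.56 and 9.21 in ESR1KO (difference -2.44 ± 0.42). Fibromodulin (Fmod), of the same family of small leucine-rich proteoglycans, was higher by 2.88 ± 0.21, from 5.46, 5.45 and 5.71 in WT to 8.50, 8.06 and 8.70. Of 16 matched metalloproteinases and inhibitors 4 rose and 1 fell (31.2% called, against 18.1% of all matched genes). Adamts16 gave 5.38, 5.54 and 6.38 in WT and 9.78, 9.07 and 9.85 in ESR1KO (log2 difference 3.80 ± 0.38 SE, adjusted p at most 0.00194) and matrilysin (Mmp7), an epithelial protease, 5.35, 4.85 and 4.66 in WT and 8.40, 8.20 and 8.98 in ESR1KO (log2 difference 3.57 ± 0.43 SE, adjusted p at most 0.00454). Adam33 and Adamts3 rose by 1.54 ± 0.31 and 1.15 ± 0.23, and Adamts4, an aggrecanase, fell, 7.46, 8.28 and 7.35 in WT and 5.54, 5.27 and 4.58 in ESR1KO (difference -2.57 ± 0.40). Adam33 lost its call under 16 of 21 alternatives and Adamts3 under 12. Stromal fibroblast markers went both ways: Pdgfra was higher by 1.12 ± 0.20, Lum and Col1a2 were lower, and Dpt (1.05), Fbln1 (0.89) and Cd34 (0.52) were not called.

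Of the 4 matched endothelial markers 2 were lower in untreated ESR1KO, Pecam1, an adhesion molecule of the vessel lining, and Emcn (endomucin), and Esam and Kdr were not called. Pecam1 read 8.03, 8.54 and 7.88 in WT and 4.32, 6.35 and 4.06 in ESR1KO (9.45-fold lower, log2 difference -3.24 ± 0.53 SE, adjusted p at most 0.0164), with ESR1KO replicate 2 highest of its group. Emcn gave 9.11, 9.52 and 9.09 in WT and 7.82, 8.16 and 7.03 in ESR1KO (log2 difference -1.57 ± 0.25 SE, adjusted p at most 0.0164). Pecam1 lost its call under 7 of 21 alternatives and Emcn under 6, for both also with the 6 untreated arrays alone. Esam (-0.55 ± 0.13) and Kdr (-0.51 ± 0.19), a receptor for vascular endothelial growth factor, had smaller differences. Their groups did not overlap either, which held for 78.5% of all matched genes and so sets them little apart. After PMSG 0 of the 4 were called, against 45.7% of all matched genes, with differences of -1.26, -0.31, 0.08 and -0.23. The test of the difference between the untreated and the PMSG difference gave an unadjusted p of 0.0223 for Pecam1, 0.00507 for Emcn, 0.00554 for Esam and 0.335 for Kdr, and none passed adjustment (limma, adjusted p at most 0.883 to 1). Flt1, another receptor for vascular endothelial growth factor and a member of the growth factor list, gave 4.67, 5.26 and 4.41 in WT and 3.00, 2.94 and 2.87 in ESR1KO untreated (log2 difference -1.84 ± 0.20 SE, adjusted p at most 0.00245) and a difference of -0.13 after PMSG, and the interaction gave an adjusted p of at most 0.121, so it was not called.

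Further genes known from vessel endothelium were picked out after their values were seen, and so only describe the same arrays. Those picked were all lower, so their common direction follows from the choice and does not count endothelial genes as a set. Gpihbp1, which anchors lipoprotein lipase in capillaries, read 4.88, 6.38 and 5.99 in WT and 1.84, 3.57 and 2.71 in ESR1KO (difference -3.04 ± 0.50, and -1.07 after PMSG). It was near background in ESR1KO, so its fold is uncertain. Adgrl4 differed by -2.31 ± 0.38, Mmrn2 by -2.14 ± 0.38, Ptprb, the vascular endothelial protein tyrosine phosphatase, by -1.62 ± 0.25 and Egfl7 by -1.33 ± 0.15. Lama4, a laminin chain of vessel basement membrane, was 4.28, 5.87 and 4.40 in WT and 2.52, 2.47 and 2.33 in ESR1KO (difference -2.41 ± 0.45). It too was near background in ESR1KO, and it lost its call under 13 of 19 alternatives. The endothelial markers Cdh5 (6.21), Vwf (6.93) and Tek (6.00) could be read only in ESR1KO, where they were above background, and Tie1 (2.43) was not.

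**Figure D3:**
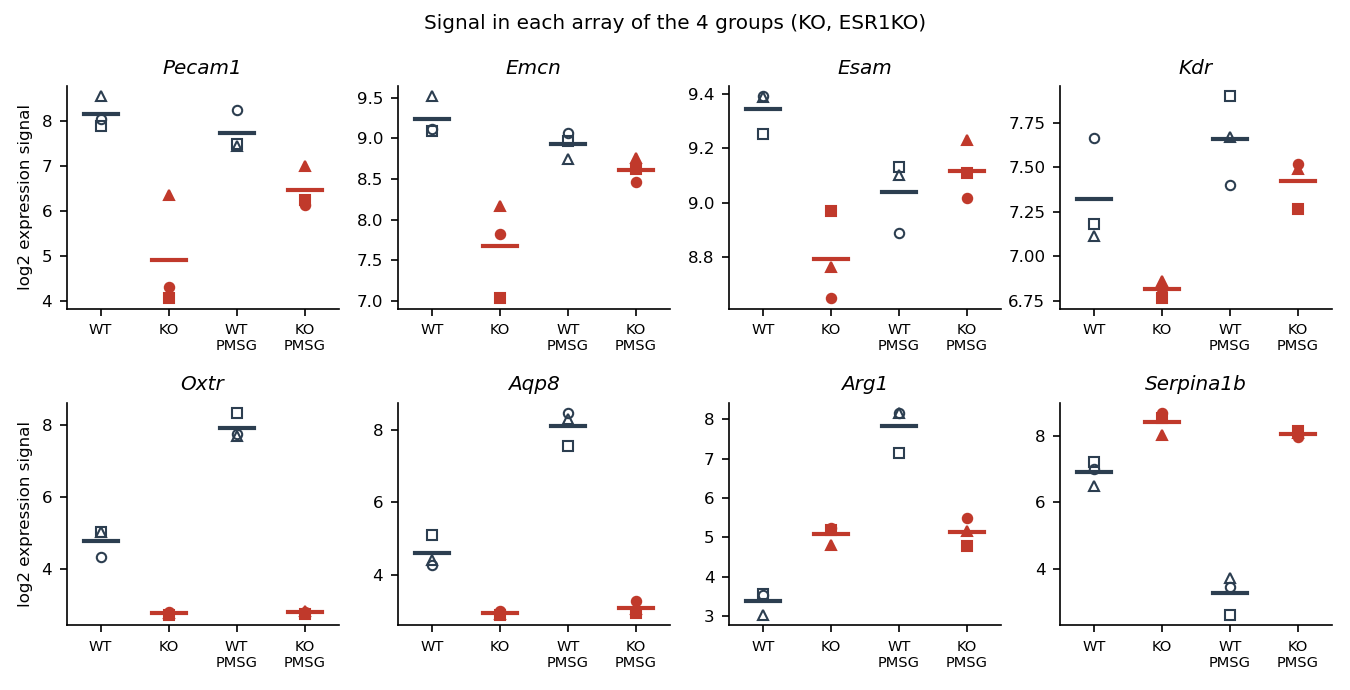
Log2 expression signal (vertical axis, with its own range in each panel) in each array of the 4 groups, for 4 endothelial markers (top) and 4 genes whose genotype difference changed with PMSG (bottom); short lines are means of 3 arrays, open symbols WT, filled symbols ESR1KO. The mean of untreated ESR1KO is the lowest of the 4 for Pecam1 and Emcn, and Oxtr and Aqp8 are highest in PMSG-treated WT.

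Ion channels and aquaporins had 7 lower and 4 higher of 27 matched, a share of 40.7% against 18.1% of all matched genes. Enrichment was not tested, since this list too was written with earlier results of these data known. Ano4, an anoctamin, was 11.49, 11.51 and 11.51 in WT and 6.23, 10.09 and 6.86 in ESR1KO, with replicate 2 nearest to WT (log2 difference -3.77 ± 0.73 SE, adjusted p at most 0.0398). Aqp5, a water channel of secretory epithelia, gave 5.31, 6.00 and 6.50 in WT and 3.58, 3.51 and 3.47 in ESR1KO (log2 difference -2.42 ± 0.29 SE, adjusted p at most 0.0041), and Aqp8 4.28, 4.41 and 5.10 in WT and 3.01, 2.93 and 2.90 in ESR1KO (log2 difference -1.65 ± 0.27 SE, adjusted p at most 0.0187). Both aquaporins were near background in each ESR1KO array. Potassium channel subunits went in both directions. Kcnf1 fell by 2.55 and Kcnmb4 by 1.57 on the log2 scale, whereas Kcnd2, a channel of the A-type current, rose from 2.74, 2.77 and 3.10 to 6.78, 5.88 and 6.64 (log2 difference 3.56 ± 0.29 SE, adjusted p at most 0.000663), Kcne1 by 3.21 ± 0.63 and Kcnc2 by 2.89 ± 0.46. The calcium channel Cacna1g had a difference of 2.12 ± 0.43 and the subunit Cacna2d3 of -1.99 ± 0.38. Of 22 matched ABC transporters and ATPases 5 rose and 2 fell (31.8% called). Atp6v1b1, a subunit of the proton pump, led the rises, with 4.00, 4.35 and 3.89 in WT and 6.32, 6.49 and 6.95 in ESR1KO (log2 difference 2.51 ± 0.24 SE, limma adjusted p at most 0.00143). Solute carriers had 1 lower, Slc10a7, and 1 higher, Slc15a2, of 22 (9.09% called, against 18.1% of all matched genes). The key ends at Slc27a2, within this family, so its later members were not tested and the share does not describe the family. Slc10a7 lost its call under 9 of 21 alternatives and Slc15a2 under 14.

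Junction and adhesion genes were called in equal numbers, 4 lower and 4 higher of 27 (29.6% called, against 18.1% of all matched genes). Cdh16, a cadherin of epithelia, read 8.74, 8.02 and 8.37 in WT and 11.76, 11.51 and 12.45 in ESR1KO (log2 difference 3.53 ± 0.58 SE, adjusted p at most 0.0168). Among the claudins, which seal tight junctions, Cldn9 (2.61 ± 0.32) and Cldn11 (2.14 ± 0.37) were higher and Cldn23 (-1.81 ± 0.26) and Cldn22 (-1.18 ± 0.17) lower. Pcdh8 was higher, 2.76, 1.97 and 1.98 in WT and 6.55, 5.91 and 5.89 in ESR1KO, and Pcdh17 lower, 6.82, 7.77 and 7.51 in WT and 4.42, 4.82 and 2.61 in ESR1KO. Among the other large increases was that of Chodl, a lectin-like membrane protein, with 6.81, 5.33 and 6.66 in WT and 11.45, 10.81 and 10.58 in ESR1KO (log2 difference 4.68 ± 0.66 SE, adjusted p at most 0.00814), and that of BC048679, with 7.51, 7.65 and 7.09 in WT and 11.63, 11.62 and 12.18 in ESR1KO (log2 difference 4.39 ± 0.47 SE, adjusted p at most 0.00234). Rtn1, a reticulon, was among those lower, 11.21, 11.03 and 11.25 in WT and 6.48, 8.76 and 5.73 in ESR1KO (log2 difference -4.17 ± 0.62 SE, adjusted p at most 0.0103), and so was Mlc1, with 8.63, 9.33 and 9.23 in WT and 2.82, 6.25 and 3.50 in ESR1KO.

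Growth factors and their receptors had 4 members higher and 3 lower of 25 (28.0% called, against 18.1% of all matched genes). Fgf18 gave 6.96, 6.68 and 7.25 in WT and 9.26, 8.66 and 9.56 in ESR1KO (difference 2.20 ± 0.41), Pdgfc rose by 1.06 ± 0.13 and Vegfd fell by 1.53 on the log2 scale. In the Wnt pathway 3 of 22 rose and 1 fell (18.2% called, against 18.1% of all matched genes). Lgr5, a receptor for R-spondins and a stem cell marker in several epithelia, read 7.23, 7.22 and 7.71 in WT and 9.73, 9.12 and 9.76 in ESR1KO (log2 difference 2.15 ± 0.32 SE, adjusted p at most 0.00966). Sfrp1, a secreted antagonist, rose by 1.36 ± 0.24 and the receptors Fzd3 and Fzd5 differed by 1.01 ± 0.18 and -1.01 ± 0.16. After PMSG 13 of the same 22 were called higher and 4 lower, where 26.9% and 18.8% of all matched genes were. Of 13 matched axon-guidance genes 2 were called (15.4%, against 18.1% of all matched genes), Dcc (-2.89 ± 0.41) and Nrp2 (-1.70 ± 0.27), both lower. The median log2 difference of that list was 0.54, and after PMSG 2 members were called lower and 7 higher. Of 13 matched JAK-STAT, MAP kinase and PI3 kinase signalling genes 3 were called (23.1%), all lower, and the list median was 0.013. These were Mapk10 (-2.16 ± 0.30), Pik3r3 (-1.44 ± 0.20) and Prkce (-1.27 ± 0.22). Gadd45a, a growth arrest gene, fell from 11.52, 11.70 and 11.55 to 8.71, 9.77 and 9.03 (log2 difference -2.42 ± 0.29 SE, adjusted p at most 0.004). None of 12 matched developmental transcription factors and none of 2 proliferation genes was called. At an unadjusted p under 0.01 and 2-fold the 1997 matched genes gave 584 calls.

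Markers of leukocytes were 2 higher and 0 lower of 7 matched (28.6% called, against 18.1% of all matched genes). Both that rose, Cd163 (1.67 ± 0.33) and Mrc1 (1.11 ± 0.19), are scavenger receptors of tissue macrophages. Cd163 lost its call under 15 of 21 alternatives and Mrc1 under 6. Csf1r, the receptor that defines macrophages, gave 8.92, 9.09 and 8.69 in WT and 9.79, 9.30 and 9.45 in ESR1KO and Lyz2 10.21, 10.45 and 9.82 in WT and 10.59, 10.55 and 10.98 in ESR1KO, and neither was called (adjusted p at most 1 for both). The other 3 were not called either: Kit, of mast cells, with a difference of -1.62 ± 0.41 (adjusted p at most 0.143), Cd79b, of B cells, with 1.67 ± 0.35 (at most 0.06), and Cd74, the invariant chain, with 0.93 ± 0.40 (at most 1). The single matched ciliated cell marker, Dnah8, differed by 0.16 ± 0.22, and the adipocyte marker Cidea by -1.70 ± 0.39 (adjusted p at most 0.088). Red cell Alas2 was near background in all 6 arrays, and no ovary marker was matched. Of the 3 mesothelium markers Lrrn4 was called higher (1.39 ± 0.26), a call lost under 13 of 21 alternatives. Bnc1 (0.96 ± 0.17, limma adjusted p at most 0.0242) missed only the 2-fold minimum, at 1.94-fold. Aldh1a2 (0.82 ± 0.21) was not called.

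The 3 ESR1KO arrays were not equally far from WT. Replicate 2 was the ESR1KO array nearest to WT in 129 of the 180 genes lower (71.7%) and in 129 of the 181 higher (71.3%), against 39.8% and 45.8% of the genes not called. Its median difference from the WT mean was -1.48 in genes called lower, where the other 2 arrays had -2.06 each, and 1.50 in those called higher, against 1.87 and 1.94. Esr1 was also highest in this array. The part of that array's Esr1 level in its smaller differences was not tested. Without it, the untreated comparison gave 331 calls, 291 of them shared with the 361.

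**Figure D4:**
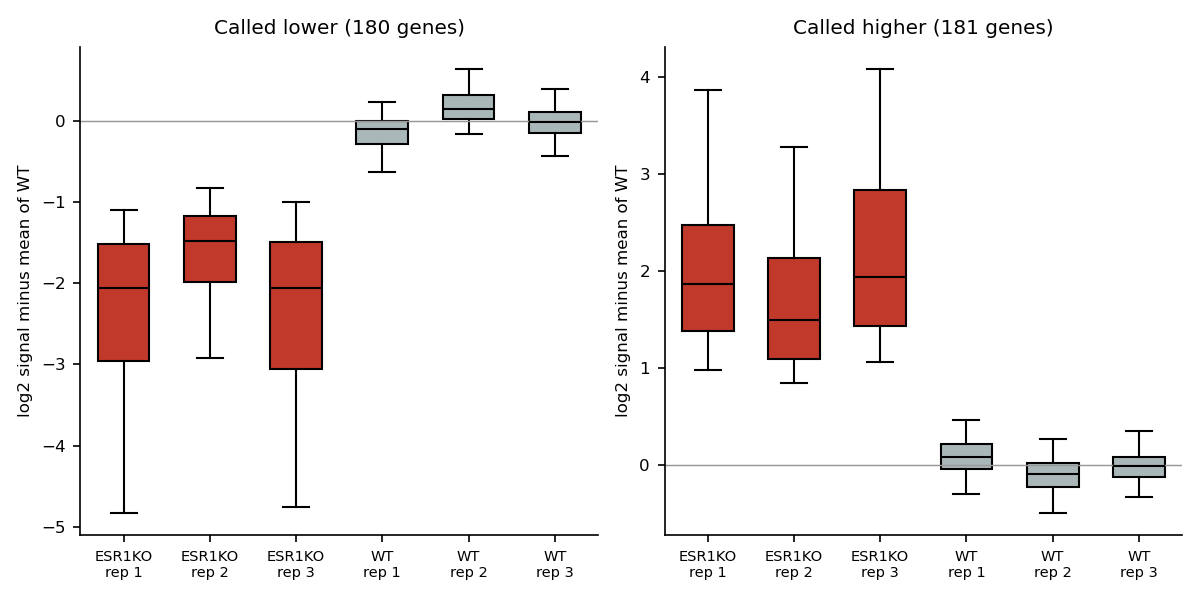
Log2 signal minus the mean of the 3 WT arrays (vertical axis) in each of the 6 untreated arrays, over the genes called lower (left) and higher (right); boxes span the quartiles, the line is the median and whiskers reach from the lowest to the highest 5% of genes. ESR1KO replicate 2 has the median nearest to 0 of the 3 ESR1KO arrays in both panels, -1.48 and 1.50.

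Set beside the genotype difference after PMSG, in other arrays, most untreated changes were found there as well. On the same 1997 genes 912 (45.7%) were called after PMSG, 537 higher (26.9%) and 375 lower (18.8%). Of the 180 genes lower without PMSG 127 were also lower with it, which is 70.6% of the former and 33.9% of the latter, and of the 181 higher 152, which is 84.0% and 28.3%. The direction was the same in 174 of 180 and 178 of 181. The matched genes had passed an overall test of all 4 groups, PMSG arrays included, so part of this agreement can come from that selection. The share with the same direction among all matched genes was not counted. The 53 genes lower without PMSG alone had a median difference of -1.47 without and -0.74 with it. Both comparisons share an estimate of the spread but no arrays.

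Whether a gene's genotype difference itself changed with PMSG was tested as an interaction, which called 13 genes (0.651%). Oxtr read 4.32, 5.01 and 5.02 in WT and 2.81, 2.78 and 2.72 in ESR1KO untreated and 7.74, 7.68 and 8.33 against 2.80, 2.82 and 2.75 after PMSG, so its difference went from -2.01 to -5.13 (difference between them 3.12 ± 0.33 SE, limma adjusted p at most 0.0123). Oxtr was near background in ESR1KO without and with PMSG (means 2.77 and 2.79), so both folds are uncertain. Its WT mean went from 4.78 to 7.92. Aqp8, also near background in ESR1KO both times (2.95 and 3.10), went from -1.65 to -5.02 (limma adjusted p at most 0.0204). Serpina1b went from 1.52 to 4.78 (limma adjusted p at most 0.0436), with PMSG-treated WT near background (mean 3.27). Arg1, an arginase, turned: it gave 3.54, 3.03 and 3.56 in WT and 5.24, 4.81 and 5.18 in ESR1KO untreated, higher in ESR1KO, and 8.17, 8.15 and 7.15 in PMSG-treated WT against 5.50, 5.16 and 4.79 in PMSG-treated ESR1KO (difference between them 4.38 ± 0.44, adjusted p at most 0.0123). Klk1b1, at background untreated, differed by -5.98 after PMSG. Adh1 had differences of 1.07 without and -0.19 with PMSG, and Clu (clusterin), picked after its values were seen, of 1.21 and 0.01. The interaction gave an adjusted p of at most 0.187 for Adh1 and 0.105 for Clu, so neither was called. With an array left out the interaction called from 1 gene (without PMSG-treated ESR1KO replicate 2) to 44 (without PMSG-treated WT replicate 3).

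**Figure D5:**
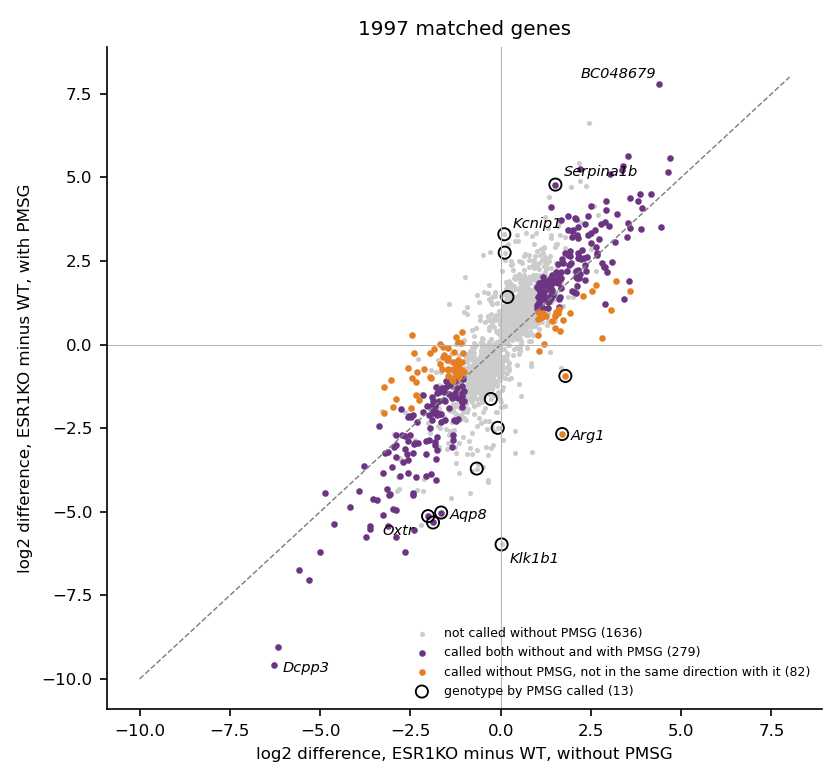
Log2 difference of ESR1KO minus WT after PMSG (vertical axis) against the same without PMSG (horizontal axis) for the 1997 matched genes; the dashed line marks equal differences, colours the calls and rings the 13 interaction calls. Dcpp3 lies farthest to the lower left, at -6.28 and -9.59, and Arg1 in the quadrant of opposite signs.

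Promoters of the called genes were searched for the palindromic estrogen response element, spelled GGTCANNNTGACC with N for any base, on both strands of the window from 250 bases before to 50 after each RefSeq start (GRCm38.p6). Among all 27025 genes with such a window 20 (0.074%) held the exact letters, and none of the matched genes did. With at most 1 mismatch the letters were found in 5 of 121 genes called lower (4.13%), 1 of 125 called higher (0.8%), 8 of 1191 not called (0.672%) and 0.995% of all genes. The shorter motif GGTCA alone, which is part of the palindrome, was in 52.1%, 32.8%, 41.8% and 43.6% of the same sets, and the AP-1 motif TGANTCA in 9.09%, 9.6%, 6.72% and 8.97%. Such a match is a description of the letters and not a binding site. No test was made of these shares, and genes have from 1 to several windows. The 5 genes lower with a near match were Ccdc3, Creb3l4, Mef2c, Necab2 and Sgsm1. They are printed because they carry the near matches of the genes that fell, with the 250 bases before the start of the window's transcript, 5′ to 3′ on the gene's strand, and the 13 matching bases in capitals.
Ccdc3 (chr2:5137526-5137775, strand +): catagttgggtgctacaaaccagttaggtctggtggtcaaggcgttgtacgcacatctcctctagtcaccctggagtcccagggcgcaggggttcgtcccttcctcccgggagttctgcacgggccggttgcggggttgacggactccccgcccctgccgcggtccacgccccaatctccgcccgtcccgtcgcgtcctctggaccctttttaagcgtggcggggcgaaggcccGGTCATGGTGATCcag
Creb3l4 (chr3:90242551-90242800, strand -): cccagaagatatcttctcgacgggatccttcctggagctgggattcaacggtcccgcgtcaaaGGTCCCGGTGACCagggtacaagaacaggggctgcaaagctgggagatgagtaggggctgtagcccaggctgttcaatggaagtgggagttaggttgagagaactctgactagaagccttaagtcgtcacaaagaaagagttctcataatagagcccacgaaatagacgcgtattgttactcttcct
Mef2c (chr13:83573357-83573606, strand +): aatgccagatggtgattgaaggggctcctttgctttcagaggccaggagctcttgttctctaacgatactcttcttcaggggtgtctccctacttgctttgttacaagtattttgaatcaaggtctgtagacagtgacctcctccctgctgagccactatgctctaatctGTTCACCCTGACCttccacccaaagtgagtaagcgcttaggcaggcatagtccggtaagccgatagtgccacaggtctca
Necab2 (chr8:119446469-119446718, strand +): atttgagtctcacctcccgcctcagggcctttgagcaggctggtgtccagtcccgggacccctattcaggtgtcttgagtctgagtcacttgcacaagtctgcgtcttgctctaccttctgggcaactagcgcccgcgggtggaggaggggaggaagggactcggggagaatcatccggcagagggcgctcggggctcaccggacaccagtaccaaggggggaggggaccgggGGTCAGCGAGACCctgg
Sgsm1 (chr5:113280602-113280851, strand -): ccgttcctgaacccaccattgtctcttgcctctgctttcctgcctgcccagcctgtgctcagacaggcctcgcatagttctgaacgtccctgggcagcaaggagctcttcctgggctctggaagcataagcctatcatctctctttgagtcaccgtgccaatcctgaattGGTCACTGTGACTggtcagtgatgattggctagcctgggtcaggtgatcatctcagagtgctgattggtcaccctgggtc

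Ccdc3, a secreted protein, had the near match 16 bases before its start and gave 8.65, 9.08 and 8.65 in WT and 6.55, 6.90 and 6.75 in ESR1KO, with the groups far apart (log2 difference -2.06 ± 0.21 SE, adjusted p at most 0.00215). The windows of Sgsm1, Creb3l4, Mef2c and F13a1 belong to inner starts of these genes. Sgsm1 gave 9.07, 9.18 and 9.53 in WT and 6.54, 7.89 and 5.91 in ESR1KO (log2 difference -2.48 ± 0.46 SE, adjusted p at most 0.0323), again with ESR1KO replicate 2 the highest. Creb3l4, a transcription factor anchored in the endoplasmic reticulum, differed by -1.79 ± 0.35, Necab2, a neuronal calcium-binding protein, by -1.95 ± 0.31 and Mef2c, a transcription factor of muscle and endothelium, by -1.49 ± 0.24. The gene higher with a near match, F13a1, the A chain of coagulation factor XIII, read 7.74, 8.11 and 7.66 in WT and 10.25, 9.56 and 9.60 in ESR1KO (log2 difference 1.96 ± 0.25 SE, adjusted p at most 0.00525), with GGTCACTTTGCCC from 9 bases before its start. After PMSG Ccdc3 and Creb3l4 differed by -3.93 and -2.03 and were called, while Mef2c (-0.46), Necab2 (-0.96) and Sgsm1 (-1.90) were not.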

How the data were processed

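Total RNA of mouse oviducts was hybridized to Affymetrix Mouse Genome arrays, 3 for each of 4 groups. The deposited values are log2 expression signals that the authors made with Partek 6.6 by GC-RMA, followed by quantile normalization across arrays and a median polish within probe sets. They hold 45101 rows, 64 of them controls, and no detection calls. No depth applies to arrays, and 3 arrays a group limit the precision.

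Since the untreated ESR1KO columns and the other 9 follow different row orders, each of the 1997 held rows of a supplementary gene table was located by its printed folds and p-values, which served as a key and entered no test. The largest distance was 8.76e-05 on the log2 scale, with p-values within 0.298%, and 66 rows had a second candidate within 1% and took the closest. The symbol of the located probe set, not part of the key, equalled that of the table in 1896 of 1903 rows with one (99.6%), and in 1 after shuffling. Names came from the probe annotation with synonyms of RefSeq GRCm38.p6, and 1821 rows had 1 equal symbol.

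Differences were fitted with limma 3.58.1 in R 4.3.3, with cell means over all 12 arrays, as in the study's model, and a prior variance with trend from the 9 columns over all rows (prior degrees of freedom 2.87). Benjamini-Hochberg adjustment was made as for 45101 tests, which gives an upper bound of the adjusted p. A difference was called at a bound under 0.05 and at least 2-fold, the interaction at a bound under 0.05. The matching and the fit were tested on simulated data. The value after ± is a standard error from the fit.

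Named genes were the nuclear receptors, the 15 largest called per direction with groups apart, the 10 largest with both means at least 4, up to 6 called per direction of each gene list, matched cell type markers and interaction calls. The members, lists and rule were chosen with earlier results of these data known. The lists hold pathways and markers, and all are counted in the plot of called genes per list. Promoters came from the RefSeq table of GRCm38.p6. The alternatives tried were the unmoderated model of the methods, a prior without trend, a mean signal of at least 4, repeated quantile normalization, a block on the replicate number, no minimum fold, the 6 arrays alone, rows without a second candidate or with 1 equal symbol, and each array left out.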

Additional observations from a re-analysis of the deposited data

Results flagged for a closer look

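The 13 genes below had a genotype difference that changed with PMSG by the test of the difference itself (limma interaction, adjusted p under 0.05). Values are the log2 difference of ESR1KO minus WT without PMSG, less the same with PMSG. Above 0, where ESR1KO was lower relative to WT after PMSG than without it, were Klk1b1 (6.00), Arg1 (4.38), probe set 1418476_at (3.45), Aqp8 (3.37), Oxtr (3.12), Pak3 (3.05), probe set 1441102_at (2.73), probe set 1460185_at (2.41) and Kcnma1 (1.35). Below 0 were Serpina1b (-3.27), Kcnip1 (-3.20), Shisa3 (-2.64) and Cdc42ep3 (-1.24). Klk1b1, Pak3, Kcnma1, Kcnip1, Shisa3, Cdc42ep3 and probe set 1460185_at were not called without PMSG, where their differences were 0.03, -0.66, -0.27, 0.10, 0.11, 0.19 and -0.08. The probe sets given by number had no single symbol equal to that of the key.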

How the results depend on the processing

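The 361 calls of ESR1KO against WT became 138 under the methods' unmoderated model and 171 with the 6 arrays alone, and 101 to 499 with an array left out (101 without WT replicate 2, 142 without WT replicate 3, 211 without WT replicate 1, 167 without ESR1KO replicate 3, 179 without ESR1KO replicate 1). The 912 calls after PMSG became 564 with the 6 arrays alone and 620 to 911 with an array left out. The 13 interaction calls became 1 under the unmoderated model, 7 without rows with a second candidate, 7 without rows not named by 1 equal symbol and 1 to 44 with an array left out (WT replicate 1, 4 calls; WT replicate 2, 8; WT replicate 3, 7; ESR1KO replicate 2, 4; PMSG-treated WT replicate 1, 6, and replicate 3, 44; PMSG-treated ESR1KO replicate 1, 7, replicate 2, 1, and replicate 3, 5). Without a fold minimum the counts were 434 and 1270. Of 128 called genes that the naming rule took, 34 kept their call under each alternative that retained their row, 94 lost it under at least 1, and 0 reversed. The adjusted p is a bound, so a call lost under a setting is not shown to fail.

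The main fit took the samples as unpaired. Deviations of arrays with the same replicate number correlated from -0.114 to 0.265 over all groups, not all above 0.1. For untreated ESR1KO with WT the values were 0.141, 0.265 and -0.00168. With 3 arrays a group these values cannot settle whether the replicate numbers pair samples. With the replicate number as a block there were 328 calls for ESR1KO against WT, 873 after PMSG and 10 for the interaction. What limits these results is 3 pooled arrays a group, signals near background and the selection of matched genes.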
